A study of Mus musculus with 2 samples.

Results

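The Myc, Max and Mxd network was described here through 9 genes: Myc, Mycn, Max, Mxd1, Mxd3, Mxd4, Mxi1, Mnt and Mlx. The members are the genes of these names, with every probe set that the array's annotation assigns to 1 of them and to no other gene. They had 21 of the 34945 probe sets assigned to 1 gene, and were 9 of 18193 genes. The cells were primary mouse myoblasts, the muscle precursors that divide and later fuse into fibres, isolated from newborn Sv129 mice and grown on laminin and collagen. For 4 hours control cells had DMEM containing 2% horse serum, and the Wnt3a group had this medium for the same 4 hours with Wnt3a added at 100 ng/ml. There was 1 array for each condition, so no value has a replicate, no difference has a test, and the number of arrays limits the precision. The labels do not say how many mice or cultures each array drew on.

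Proteins of this network bind DNA through a basic helix-loop-helix leucine zipper. MYC and MYCN activate genes of growth, ribosome production and metabolism, and they do so as dimers with MAX, which itself lacks an activation domain. MXD1, MXD3, MXD4, MXI1 and MNT also pair with MAX, recruit SIN3 corepressors and oppose MYC at the same sites, and MLX is a MAX-like partner that links part of the network to the glucose-sensing factors MLXIP and MLXIPL. In muscle precursors Myc is known for accompanying proliferation and for being low in differentiated fibres. Wnt ligands such as Wnt3a stabilise β-catenin, and Myc is widely known as a target of β-catenin in intestinal epithelium.

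The DNA element shared by all these dimers is the E-box CACGTG, which reads the same on both strands. It is shown here because the network regulates genes through it. RefSeq promoter windows (GRCm38.p6, 250 bases before to 50 bases after a transcription start) were matched for 8 of the 9 members, all but Myc. The E-box was found in those of 4 of the 8, namely Max, Mxd4, Mnt and Mlx, and was not in the windows of Mycn, Mxd1, Mxd3 and Mxi1. Among all genes with such a window 8.09% held it, and among those measured on these arrays 11.9%. Each stretch below runs 5′ to 3′ along the gene's strand, with the E-box in capitals.
Max, chr12:76962234-76962263, minus strand: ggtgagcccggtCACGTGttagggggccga
Mxd4, chr5:34187912-34187941, minus strand: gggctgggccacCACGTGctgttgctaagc
Mnt, chr11:74830789-74830818, plus strand: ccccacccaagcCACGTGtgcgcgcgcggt
Mlx, chr11:101087238-101087267, plus strand: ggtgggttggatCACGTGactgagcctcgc
The first base of the E-box lay 3 bases before the start in Max, 40 in Mlx, 123 in Mnt and 219 in Mxd4. A match describes these letters only and is no evidence of binding.

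Levels are given as log2(intensity + 1), where the intensity is the authors' linear value per probe set. A gene counted as measured where its brightest probe set reached log2 6, an intensity of 63, on at least 1 array. This floor is a fixed brightness and no detection call. All 9 members passed it on both arrays, as did 17 of their 21 probe sets, while the other 4 probe sets were below it on both arrays. Over all 11397 measured genes the median difference was -0.01 and the central 95% of differences ran from -0.33 to 0.33. Between probe sets of the same gene the pooled SD was 0.12 (5084 genes), which covers noise between probes and not between cultures, labellings or hybridisations. Axin2, a textbook Wnt target, went from 98.7 in the control to 1220 with Wnt3a, with a log2 difference of 3.61 on this probe set and 1.72 on its other one.

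Myc was lower with Wnt3a, while none of the other members differed by as much as 1.5-fold. On the single Myc probe set, 1424942_a_at, the intensity was 1525 without Wnt3a and 695 with it, a change of -54.5%. As levels these were 10.58 and 9.44, a log2 difference of -1.13 or 2.19-fold. It was the only member that was at least 2-fold lower and none was 2-fold higher. Over all measured genes 0.0614% were at least 2-fold lower and 0.254% at least 2-fold higher. Only 3 measured genes had a lower difference than Myc, namely Scgb1a1 (-2.43, below the floor with Wnt3a), Id4 (-1.19) and Epha4 (-1.17). Of the 1959 measured genes whose mean level lay within 0.5 of that of Myc on the log2 scale, the central 95% of differences ran from -0.29 to 0.24, and Myc was the only 1 at or below -1.13. The Myc value rests on 1 probe set, so even the noise between probes cannot be given for it. In total RNA from a culture, fewer cells with a transcript and less of it per cell cannot be told apart.

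**Figure D1:**
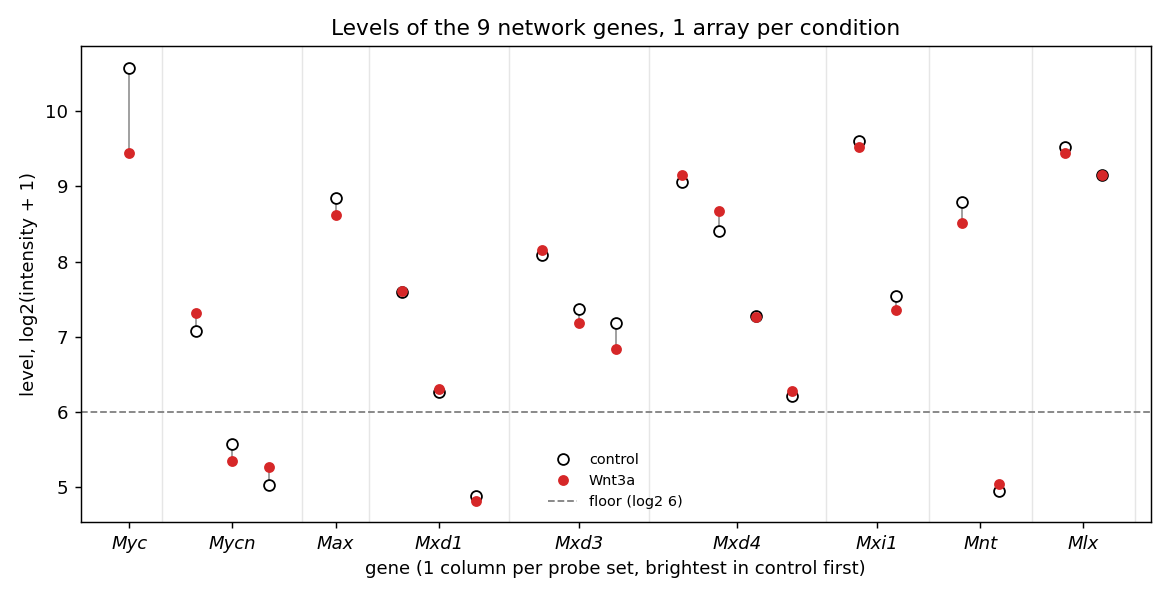
Level of every probe set of the 9 genes as log2(intensity + 1), with the control array as open circles and the Wnt3a array as filled circles, joined by a line. Each column is 1 probe set on 1 array per condition, and the dashed line is the floor at 6. The gap of Myc, from 10.58 to 9.44, is larger than that of any other probe set shown.

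Mycn, the relative of Myc best known from embryonic and neural tissue, lay on the opposite side on its brightest probe set. That probe set, 1425923_at, had an intensity of 134 in the control and 159 with Wnt3a, a log2 difference of 0.25. Its other probe sets were below the floor on both arrays and disagreed in direction, at 46.6 and 39.4 on 1425922_a_at and at 31.7 and 37.6 on 1417155_at. As the mean over its 3 probe sets the Mycn difference was 0.08. The opposite sides of Myc and Mycn therefore rest on 1 probe set of each gene. Max, the common partner of both, was lower by less than Myc. Its 1 probe set, 1423501_at, had an intensity of 461 in the control and 391 with Wnt3a, a log2 difference of -0.24 or a change of -15.2%. Of the measured genes 5.99% had a lower difference than Max, and its value lay within the central 95%.

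On their brightest probe sets and the deposited scale, the Mxd antagonists stayed close to their control levels. These probe sets lay between -0.08 and 0.09, 3 of 4 higher and 1 lower, and their 11 probe sets at the floor between -0.35 and 0.27. With scaling on the spike-in controls the brightest probe sets lie between 0.10 and 0.28, against a median of 0.19 over all measured genes. Mxd1, induced in many cell types as they stop dividing, had intensities of 192 and 195 on 1434830_at and of 76.4 and 78.1 on 1455104_at, in the order control and Wnt3a. These log2 differences of 0.02 and 0.03 are smaller than the pooled SD between probe sets. Its remaining probe set was below the floor, with a difference of -0.06. Mxi1, the antagonist also called Mxd2, had 775 and 731 on 1450376_at and 185 and 162 on 1425732_a_at, log2 differences of -0.08 and -0.20. Both probe sets were lower with Wnt3a, by little.

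Mxd3 and Mxd4 gave different answers on different probe sets. Mxd3, which is expressed in dividing cells, had 272 in the control and 283 with Wnt3a on its brightest probe set, 1448878_at, a log2 difference of 0.05. On 1422970_at it had 164 and 144, and on 1438847_at 144 and 113, log2 differences of -0.18 and -0.35. The last of these is the largest difference of any member other than Myc, at 1.27-fold, and its direction is opposite to that of the brightest probe set. Mxd4, linked to differentiated cells in many tissues, had 532 and 565 on 1434378_a_at, a log2 difference of 0.09, and 338 and 408 on 1434379_at, one of 0.27. Its dimmer probe sets 1422574_at and 1422575_at gave -0.03 and 0.07. For Mxd4, 3 of 4 probe sets were thus higher with Wnt3a and 1 was lower.

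Mnt and Mlx, the partners outside the Myc and Mxd classes, were lower by small amounts on the deposited scale, that of Mlx turning with scaling on the spike-in controls. Mnt, a broadly expressed repressor that competes with MYC for MAX, had 442 in the control and 364 with Wnt3a on 1418192_at, a log2 difference of -0.28 or a change of -17.7%. Next to Myc this was the lowest value among the brightest probe sets of the members, and 3.82% of measured genes had a lower one. Its second probe set was below the floor on both arrays, at 29.9 and 31.8. Mlx had 732 and 695 on 1425930_a_at, a log2 difference of -0.08. On 1418437_a_at both arrays held exactly the same value, 568, as was the case for 3.74% of all probe sets on the array.

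Together, 4 members were higher and 5 lower on their brightest probe sets, with a median difference of -0.08. Over all measured genes 47.3% were higher and 51.2% lower, so the split of the members is close to that of the arrays as a whole. Of the 17 member probe sets at the floor 7 were higher, 9 lower and 1 equal, against 46.3% higher and 52.2% lower over all probe sets at the floor. The 8 members other than Myc ran from -0.28 to 0.25 with a median of -0.03. Myc lay 1.10 below that median, a gap of 2.15-fold that a common scaling of the array cannot alter. Of the 9 members, Myc alone fell outside the central 95% of measured genes. The members whose promoter window held the E-box stood at -0.28 (Mnt), -0.24 (Max), -0.08 (Mlx) and 0.09 (Mxd4). Those without it stood at 0.25 (Mycn), 0.05 (Mxd3), 0.02 (Mxd1) and -0.08 (Mxi1). No test was made between these small sets, and the signs of Mlx, Mxi1 and Mxd3 depend on the scaling or the probe set.

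**Figure D2:**
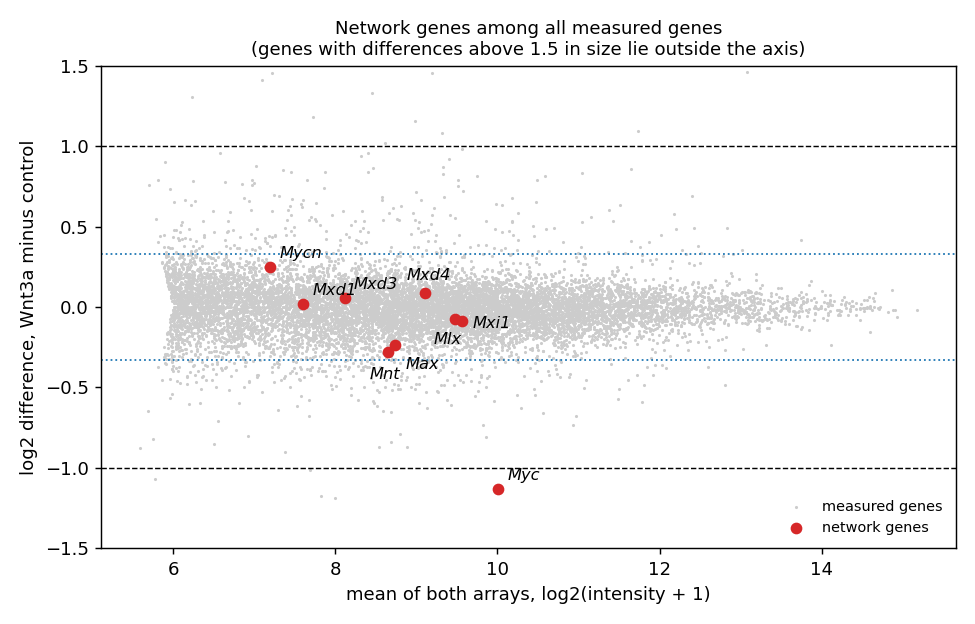
Log2 difference, Wnt3a minus control, of each measured gene's brightest probe set (grey) against its mean level on both arrays, with the 9 network genes in red. Dashed lines mark 2-fold, dotted lines the central 95% of measured genes (-0.33 to 0.33), and 19 genes with differences above 1.5 in size lie outside the axis. Myc at -1.13 is the only network gene beyond either pair of lines.

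The spike-in controls are added in fixed amounts, at more than 1 step of the procedure. Those used here were the Bio, Cre, Dap, Lys, Phe and Thr controls, without Trpn. All 42 of their probe sets were lower on the Wnt3a array, with a median of -0.19. Scaling on them adds 0.19 to every difference. Myc is then at -0.94, or 1.92-fold lower, short of the 2-fold mark, while still only 3 measured genes have a lower difference. With that scaling Mxi1 becomes 0.10 and Mlx 0.11, so that 6 members are higher and 3 (Myc, Max and Mnt) lower. Over all measured genes only 9.59% are then lower. The signs given above for Mxi1 and Mlx thus depend on the scaling, and the sign of Mxd3 on the probe set.

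**Figure D3:**
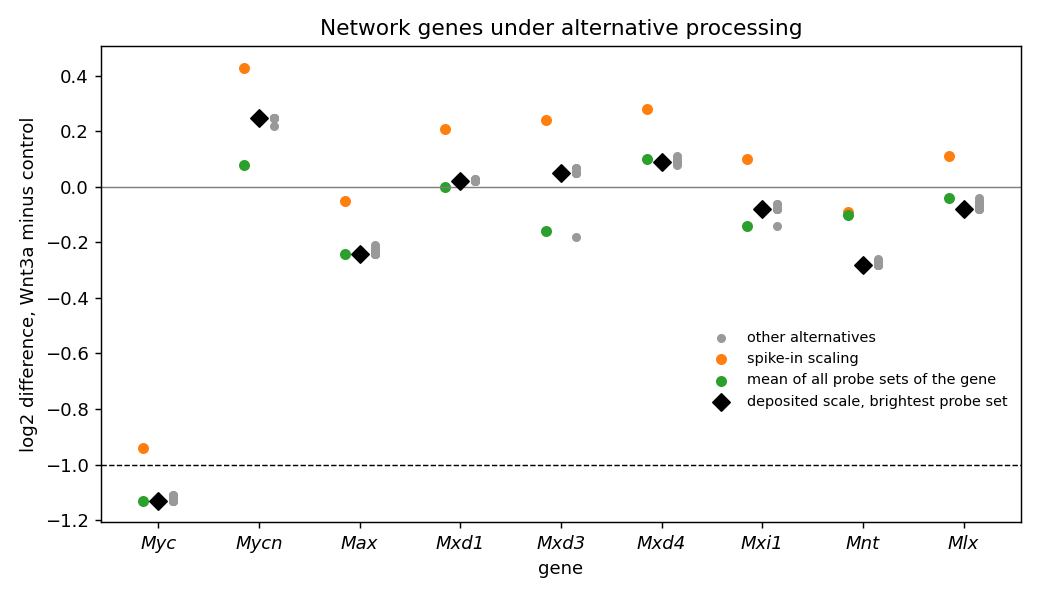
Log2 difference, Wnt3a minus control, of each network gene on its brightest probe set (diamonds), with scaling on the spike-in controls (orange), as the mean over its probe sets (green) and under the other alternatives (grey). Myc stays between -1.13 and -0.94 in all of them, Max and Mnt stay below 0, and Mycn and Mxd4 stay above 0.

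Among relatives outside the 9 genes, Mycl had the largest difference, with probe sets that agreed. Mycl encodes L-MYC, a MYC paralog that also pairs with MAX. Its brightest probe set, 1434777_at, had an intensity of 778 in the control and 567 with Wnt3a, a log2 difference of -0.46 or 1.37-fold. The other probe sets, both at the floor, gave -0.46 and -0.45. All 3 probe sets of Mycl were therefore lower by nearly the same ratio, and the brightest lay below the central 95% of measured genes. Mga, a large MAX partner that represses germline genes, had 130 and 119, a difference of -0.13 (0.06 with scaling on the spike-in controls). Mlxip, the glucose-sensing partner of MLX, had 390 and 391, and Mlxipl was below the floor on both arrays. Of these 4 relatives 3 were measured, 1 higher and 2 lower (47.3% and 51.2% over all measured genes).

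Measured genes whose products work with the network differed by less than 1.5-fold. Of 11 corepressor genes used by the MXD proteins and MNT, 8 were measured, 2 higher and 6 lower. Over all measured genes 47.3% were higher and 51.2% lower. The corepressor median of -0.05 becomes 0.14 with scaling on the spike-in controls, against 0.19 over all measured genes. Sap30, a subunit of the SIN3 deacetylase complex, went from 2200 to 1624 (-0.44, 1 probe set). It lay below the central 95% of measured genes, -0.33 to 0.33. The deacetylase Hdac2 had a difference of -0.25, with -0.21 on another probe set at the floor. The scaffold Sin3a had -0.12, with -0.32 and -0.20 on its other probe sets, and the histone chaperone Rbbp7 -0.06. Among these corepressor genes none reached 1.5-fold, a size at which 0.886% of all measured genes were higher and 0.342% lower.

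Coactivators and binding partners of MYC were divided about as all measured genes were (47.3% higher and 51.2% lower). Of 16 genes 15 were measured, 8 higher and 7 lower on the deposited scale, with a median of 0.00. With scaling on the spike-in controls, under which only 9.59% of all measured genes are lower, 14 of the 15 are higher and the median is 0.19. The largest differences were those of the scaffold Hcfc1 (0.21, and 0.07 and 0.11 on its other probe sets), Wdr5 (-0.20, and -0.03 on its other probe set), the elongation factor Paf1 (-0.15) and the acetyltransferase Ep300 (0.13). Trrap, the scaffold through which MYC recruits histone acetyltransferases, had 651 and 655, a value named after it was seen. None of these differences approached that of Myc.

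Transcripts for enzymes of MYC protein turnover, which cannot show the protein itself, had a median of -0.01. Of 17 genes 16 were measured, 7 higher and 8 lower on the deposited scale (47.3% and 51.2% over all measured genes). With scaling on the spike-in controls 15 of the 16 are higher (median 0.18), when only 9.59% of all measured genes are lower. Skp2, a ubiquitin ligase subunit that acts on MYC, had a difference of -0.23 (from -0.25 to -0.02 over 6 probe sets). The deubiquitinase Usp36 had -0.15, the phosphatase inhibitor Cip2a -0.15 and the ligase Stub1 0.14, with 0.12 on its other probe set. For Usp36 the other probe sets ran from -0.21 to 0.06. Factors reported to act on Myc transcription or mRNA, 11 genes all measured, split into 6 higher and 5 lower (median 0.00). All 11 are higher with that scaling (median 0.19), where the median of all measured genes is 0.19 too. On the deposited scale their largest differences were those of the mRNA decay factors Zfp36 (-0.17) and Zfp36l2 (-0.09), the RNA-binding Hnrnpd (-0.08) and the insulator protein Ctcf (0.07).

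Most textbook MYC-activated genes were slightly lower with Wnt3a on the deposited scale. With scaling on the spike-in controls most were higher, but a smaller share than among all measured genes. Of 38 listed genes 36 were measured, 29 of them lower (80.6%) and 7 higher, against 51.2% lower over all measured genes. Their median was -0.08, their range -0.37 to 0.17, and none differed by 1.5-fold. Hexokinase Hk2 went from 1144 to 882 (-0.37, 1 probe set), and the ribosome assembly factor Rrs1 from 4473 to 3478 (-0.36, the same on its other probe set). Both lay below the central 95% of measured genes, -0.33 to 0.33. The mitochondrial transcription factor Tfam had -0.31, and -0.03 on a second probe set. The cell cycle phosphatase Cdc25a had -0.30, and -0.31 on a second probe set at the floor. The classic targets Odc1, Ncl and Npm1, named after their values were seen, had -0.03, -0.10 and -0.08. With scaling on the spike-in controls the median of the list becomes 0.11 and 27 of the 36 genes are higher. Over all measured genes the median then becomes 0.19, and only 9.59% are lower. The list holds ribosome biogenesis genes that an earlier look at these arrays had found lower, so its count is no independent evidence of a direction.

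Of 31 listed targets with a promoter window 10 held CACGTG (32.3%), against 11.9% of measured genes and 8.09% of all genes with one, and no test was made of this. Of those 10 genes, all measured, 7 were lower and 3 higher with a median of -0.08, while of 19 measured targets without it 17 were lower and 2 higher with a median of -0.15. The lowest and the highest of the 10 are shown, the rRNA methyltransferase gene Nop2 at -0.20 and the lactate dehydrogenase gene Ldha at 0.08, the latter with its E-box nearest to the start.
Nop2, chr6:125131811-125131840, plus strand: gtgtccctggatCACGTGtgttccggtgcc
Ldha, chr7:46845744-46845773, plus strand: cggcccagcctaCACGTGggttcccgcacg
Their E-boxes began 60 and 48 bases before the start.

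Measured genes that MYC represses differed by less than 1.5-fold. Of 16 genes 13 were measured, 8 higher and 5 lower on the deposited scale, against 47.3% higher and 51.2% lower over all measured genes, with a median of 0.05 and none at 1.5-fold. With scaling on the spike-in controls 12 of the 13 are higher, with a median of 0.24. Under that scaling only 9.59% of all measured genes are lower, and their median becomes 0.19. The median of the induced targets is then 0.11. No test was made of either list against all measured genes, and both were chosen with earlier results of these data known. The cell cycle inhibitor Cdkn1b (p27) went from 558 to 709 (0.35), while a dimmer probe set under the floor gave -0.03. Ndrg4 had 0.22, with 0.20 on its other probe set, while its relative Ndrg1, which is also hypoxia-induced, had -0.34 (from -0.36 to -0.10 on its other probe sets). On their brightest probe sets Cdkn1b lay above and Ndrg1 below the central 95% of measured genes, -0.33 to 0.33. The growth-arrest gene Gas1 had -0.19, with -0.07 and 0.00 on its other probe sets. Cdkn1a (p21), named after its value was seen, had 0.05, with 0.32 on its other probe set.

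**Figure D4:**
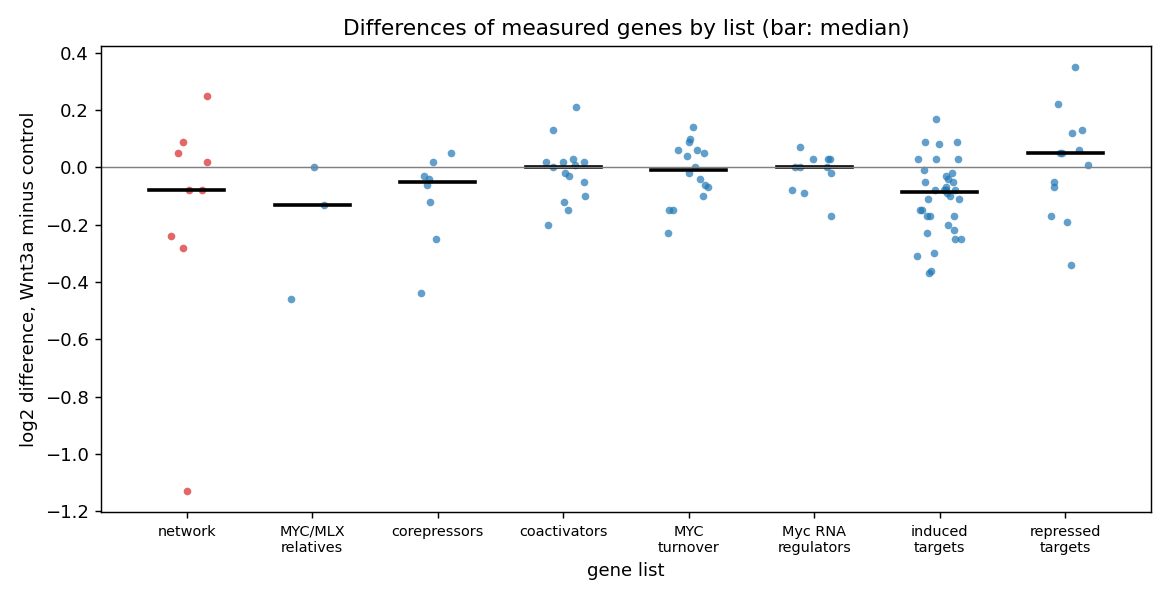
Log2 difference, Wnt3a minus control, of each measured gene of the network (red) and of 7 lists around it (blue), with the list median as a bar. The induced targets have their median at -0.08 and the repressed targets at 0.05, and Myc at -1.13 lies below every other gene shown. With scaling on the spike-in controls these medians are 0.11 and 0.24, against 0.19 over all measured genes. No test was made of these medians, and the lists were chosen with earlier results of these data known.

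Genes whose difference was most like that of Myc, by the smallest gap on the log2 scale over these 2 arrays, were the ephrin receptor gene Epha4 (-1.17), the helix-loop-helix inhibitor Id4 (-1.19) and the lung surfactant gene Sftpc. Sftpc was below the floor with Wnt3a, so it was chosen on its measured values and is at least 1.24-fold lower against the floor. Likeness over 2 arrays is only a like ratio.

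Myoblast markers were present on both arrays. Of 8 such markers 7 were measured, and their summed intensity was 36947 in the control and 38194 with Wnt3a. The largest differences were those of Myog (-0.50), Myf5 (0.49), Des (0.32) and Myod1 (-0.13), and Msc was below the floor. Of 7 fibroblast markers only Col3a1 was measured (10993 and 9335, a difference of -0.24, and -0.54 on its other probe set). The other fibroblast markers, among them Pdgfra, Col1a1 and Dcn, were below the floor. Of 7 leukocyte markers Csf1r (-0.03, and 0.36 on its other probe sets) and Lyz2 (at least 1.12-fold lower) were measured, with sums of 196 and 184. The others, among them Ptprc, were below the floor. Of 7 endothelial markers Kdr (0.00) and Tek (at least 1.12-fold lower) were measured, with sums of 136 and 105. The other endothelial markers, among them Pecam1 and Cdh5, were below the floor. Of 7 Schwann cell markers 4 were measured, Pmp22 (0.18), Mbp (-0.08), Sox10 (0.07) and Ngfr (0.04), with sums of 1056 and 1155. The part of these marker differences in the Myc result was not tested. Besides Axin2, the other measured Wnt feedback genes were Lgr5 (at least 1.85-fold higher), Nkd1 (at least 1.13-fold lower), Znrf3 (0.19) and Lef1 (-0.13).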

How the data were processed

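The deposited table holds 1 linear intensity per probe set for each of 2 arrays. Per the submitters' processing notes the authors used RMA, affy and limma, with no version or setting named, and how the values came to a linear scale and the genome build are not given in the sources used here. Intensities ran from 7.09 to 37075 (control) and from 7.07 to 36604 (Wnt3a), with medians of 57.9 and 58.7. The 64 array control probe sets were left out of gene comparisons. Of the other probe sets 34945 had 1 gene in GEO's platform annotation, 932 several and 9160 none here. Through Entrez identifiers 34741 were found in RefSeq's GRCm38.p6 table, which changed 0 symbols.

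Values were compared as log2(intensity + 1), Wnt3a minus control, so differences of dim probe sets are understated. Each gene was taken at its probe set with the highest mean, and called at a difference of at least 1 (2-fold). With 1 array per group no p-value was computed. Where 1 array was below the floor, the fold is "at least", against the floor. The text names all members, Axin2 and up to 4 measured genes of each other list with the largest differences. It also names the 3 genes nearest to Myc in difference and the 3 with a lower difference than Myc. The members and lists were chosen with earlier results of these data known. Alternatives were pseudocounts of 0 and 16, the mean of a gene's probe sets, leaving out probe sets ending in _x_at or _s_at, loess (span 0.3), spike-in scaling, quantile normalization, no floor and a floor of 8. The median of probe sets at the floor was added after seeing the data. Simulated data with known differences were used to check the computation. Python 3.11.15, numpy 2.4.6, pandas 2.3.3, statsmodels 0.14.6 and matplotlib 3.10.9 were used.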

Additional observations from a re-analysis of the deposited data

How the results depend on the processing

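The Myc difference stayed between -1.13 and -0.94 over 10 alternatives, and ended the 2-fold call only with spike-in scaling (-0.94). That scaling also turned the median of the members from -0.08 to 0.11 and raised the members that were higher from 4 to 6 of 9 (66.7% in place of 44.4%). As the mean of all probe sets 2 members were higher and 7 lower, and with a floor of 8, which left 7 members, 2 were higher. The share of members higher was 33.3% with the median of probe sets at the floor. Over all measured genes spike-in scaling moved the genes past 2-fold from 29 higher and 7 lower to 49 and 1, and lowered the share of lower genes from 51.2% to 9.59%. A pseudocount of 16 and the mean of all probe sets each left 4 genes at least 2-fold lower, Myc with them at -1.12 and -1.13. No paired analysis was possible because there is 1 array per group, and for the same reason no array could be left out. Brightness limits the 4 member probe sets below the floor, whose order means little.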

Other observations

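On the linear scale, some probe sets differed between the arrays by an exact multiple of 0.5 intensity units. Within a tolerance of 0.0001 this held for 1651 probe sets (3.66%), besides the 1689 that were identical. Among the network genes it held for Mycn on 1425923_at (a difference of 25), Max (-70) and Mlx on 1425930_a_at (-37.5). The cause was not tested.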
